A study of Mus musculus with 574 samples.

Results

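Th, Ddc, Gch1, Gchfr, Slc18a2, Slc10a4, Slc6a3 and Drd2 encode proteins that make, store, take up or sense dopamine. These 8 genes were chosen by name for those roles, with earlier results of these data known. They are 8 of the 23706 genes in the deposited table of cell pools and 8 of the 25489 in the table of single cells, and all 8 have a row in both. The cells came from the ventral midbrain of C57BL/6 mouse embryos, all heterozygous for Lmx1a-EGFP, a reporter that puts green fluorescent protein (GFP) under the control of the floor plate gene Lmx1a. The pools held 100 sorted cells each, with 6 pools in each of 4 groups: GFP-negative and GFP-positive at E10.5 (E, embryonic day), and both classes again at E13.5. There were 550 single cells, 24.9% of them taken on E10.5, 16.4% on E11.5, 32.4% on E12.5 and 26.4% on E13.5, and their labels give no GFP class. Libraries followed Smart-seq2, which copies whole transcripts and adds no molecular identifiers, and values are RPKM, reads scaled by gene length in kilobases and by mapped reads in M (mega).

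Dopamine is made from tyrosine by tyrosine hydroxylase (Th), the rate-limiting enzyme, and then by aromatic amino acid decarboxylase (Ddc), which also completes the synthesis of serotonin. Th needs the cofactor tetrahydrobiopterin, whose synthesis starts with GTP cyclohydrolase (Gch1), and Gchfr binds that enzyme and mediates its feedback control. The vesicular monoamine transporter Slc18a2 loads dopamine, serotonin and noradrenaline into vesicles, the dopamine transporter Slc6a3 takes released dopamine back up, and the D2 receptor Drd2 also acts as an autoreceptor on dopamine neurons. In the midbrain, progenitors of the floor plate that express Lmx1a give rise to dopamine neurons, in which the nuclear receptor Nr4a2 and the homeodomain factor Pitx3 take part in switching several of these genes on.

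The promoters of 4 members are printed because these genes span the patterns described below: Th and Ddc were the most often detected enzymes, Slc6a3 was the last member detected by stage, and Gchfr alone among the members was called lower in the GFP-positive pools of E13.5. Each sequence holds the 250 bases before a RefSeq start on GRCm38.p6, read on the gene's own strand, with any match to a searched motif in capitals. They are Th at chr7:142899996-142900245 (minus strand), the upstream start of Ddc at chr11:11898145-11898394 (minus strand), Slc6a3 at chr13:73536497-73536746 (plus strand) and Gchfr at chr2:119167538-119167787 (plus strand).
Th: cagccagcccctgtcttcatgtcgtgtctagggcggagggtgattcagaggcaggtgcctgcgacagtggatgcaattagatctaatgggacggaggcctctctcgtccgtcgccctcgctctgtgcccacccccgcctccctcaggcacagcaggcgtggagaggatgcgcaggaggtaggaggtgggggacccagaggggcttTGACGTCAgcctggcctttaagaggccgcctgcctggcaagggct
Ddc: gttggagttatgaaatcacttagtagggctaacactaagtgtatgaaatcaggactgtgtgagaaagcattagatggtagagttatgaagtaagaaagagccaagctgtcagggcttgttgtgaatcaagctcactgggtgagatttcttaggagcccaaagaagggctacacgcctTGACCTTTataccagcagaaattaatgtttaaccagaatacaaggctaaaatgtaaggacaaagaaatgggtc
Slc6a3: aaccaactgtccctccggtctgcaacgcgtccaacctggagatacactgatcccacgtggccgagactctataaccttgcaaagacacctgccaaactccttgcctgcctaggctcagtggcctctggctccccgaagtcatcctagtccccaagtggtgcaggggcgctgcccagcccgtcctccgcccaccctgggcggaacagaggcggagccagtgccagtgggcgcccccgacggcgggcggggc
Gchfr: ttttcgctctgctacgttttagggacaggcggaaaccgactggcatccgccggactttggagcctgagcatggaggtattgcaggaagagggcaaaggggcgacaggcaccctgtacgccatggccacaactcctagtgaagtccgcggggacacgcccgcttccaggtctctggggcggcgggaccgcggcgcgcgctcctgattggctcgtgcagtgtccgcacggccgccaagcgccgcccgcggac
The capitals in the Th sequence are the cAMP response element TGACGTCA, which begins at position -45 from the start, and those in the Ddc sequence are AAAGGTCA, the element bound by Nr4a receptors, on the reverse strand at position -73. The motifs TGACGTCA, AAAGGTCA, TAATCC (a Pitx core) and TAATTA (a homeodomain core) were searched on both strands. TGACGTCA was in 1.55% and AAAGGTCA in 1.34% of 32851 mouse promoters of that length, TAATCC in 6.25% and TAATTA in 4.84%, and neither TAATCC nor TAATTA was in any of the 9 promoter sequences of the 8 genes. A match describes letters in this window and shows no binding. The Th, Slc6a3 and Gchfr windows held 64.4%, 66% and 66.4% G or C, against 40.8% for this start of Ddc and a median of 52.4% over all promoters. The other start of Ddc, with its window at chr11:11890409-11890658, is not printed. It held 56% G or C and no match to any searched motif.

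The genes lie on 8 chromosomes and all are annotated as protein coding (GENCODE M21, GRCm38): Th at chr7:142892752-142931128, Ddc at chr11:11814101-11898144, Gch1 at chr14:47153895-47189413, Gchfr at chr2:119167773-119172390, Slc18a2 at chr19:59260896-59296012, Slc10a4 at chr5:73006883-73012955, Slc6a3 at chr13:73536747-73578672 and Drd2 at chr9:49340627-49408177. Of the 3785 exon bases of Slc18a2, 99 overlap an exon of Gm29261 on the opposite strand, and reads from these could not be assigned without strand. No other member shares exon bases with another gene.

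The reporter matched the sort labels. EGFP was 206 ± 20.96 RPKM (SD, n = 6) in E10.5 GFP-positive and 2.29 ± 2.21 in E10.5 GFP-negative pools, and 60.6 ± 10.46 in E13.5 GFP-positive pools against 0 in all 6 E13.5 GFP-negative pools. None of the 5 midbrain markers (Otx2, En1, En2, Lmx1a, Foxa2) was at 0 in all pools of any group. Estimated depth had a median of 2.51 M reads in pools and 1.29 M in cells with a median of 0.708 M at E11.5. Markers of other cells were present in the GFP-negative pools: the 6 GABAergic markers summed to 188 to 280 RPKM at E13.5, against 3.92 to 29.9 in GFP-positive pools, and the 5 microglia markers reached 254 at E10.5. In E10.5 GFP-negative pools the 5 red blood cell markers had a median sum of 24060 RPKM, with 31.2 in the lowest pool, against 44.5 in GFP-positive pools, and the 4 mesenchyme markers summed to 63.2 to 179.3, against 1.06 to 4.42. No embryo or litter is named for any pool, so p-values measure the spread between pools, which may be technical. In a pool, fewer cells that express a gene and less RNA per cell cannot be told apart.

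In GFP-positive pools, 7 of the 8 genes rose from E10.5 to E13.5, and 6 of the 8 exceeded their GFP-negative level by E13.5. Gchfr did the opposite: it rose in GFP-negative pools and was lower with GFP at E13.5. Drd2 did not pass the test by GFP class at either stage. At E10.5 the difference was the other way for Slc18a2 and Slc10a4, which were higher in the GFP-negative pools. Other markers moved with these groups. In GFP-positive pools the 3 cycling markers (Mki67, Top2a, Ccnb1) summed to 607 to 747 RPKM at E10.5 and 12.3 to 50.8 at E13.5, and the 4 subthalamic markers (Barhl1, Barhl2, Foxp2, Slc17a6) to 298 to 401 and 957 to 1264. In GFP-negative pools the cycling sums were 245 to 505 and 0.557 to 37.9, and the subthalamic sums 58.9 to 209.8 and 312 to 444. The part of such cells in the members' differences was not tested.

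All 8 genes entered the test, which took the 15871 genes with at least 1 RPKM in at least 6 pools. Slc6a3, Gch1 and Gchfr reached 1 RPKM in all 6 pools of 1 group each, the group where they were highest, and Drd2 in none, so for Slc6a3 (7 pools at 1 RPKM or more) and Gchfr (10 pools) the filter itself favours a difference. Gch1 reached 1 RPKM in 20 pools.

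The counts were read against all tested genes, with limma on log2(RPKM + 1) and calls at a Benjamini-Hochberg adjusted p under 0.05. They describe a list chosen with earlier results of these data known, so they are no independent test of it. For GFP class at E13.5, 6 members were higher and 1 lower, where the shares of all tested genes were 3.42% higher and 3.74% lower. The 2 groups' pools did not overlap for 6 members, and for 4.0% of all genes. At E10.5, 0 members were higher and 2 lower, against 4.51% and 8.64% of all genes, with 2 members and 7.59% of genes not overlapping. The median log2 difference of the members was 1.58 at E13.5 and -0.42 at E10.5, beside -0.03 and -0.01 for all tested genes.

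Between stages, 7 members rose and 0 fell in GFP-positive pools, against 22.1% of all genes that rose and 29.6% that fell. In GFP-negative pools 4 rose and 0 fell, against 19.7% and 26.9%. Stages did not overlap for 6 members in GFP-positive pools (29.9% of all genes) and for 2 in GFP-negative pools (25.6%). The change of the GFP difference from E10.5 to E13.5 was positive for 5 members and negative for 1, against 3.93% and 1.90% of all genes. The members' median stage difference on the log2 scale was 3.10 with GFP and 0.85 without, beside -0.14 and -0.11 for all genes. Scaling by median of ratios instead moved those 2 background medians to -0.03 each. The stage and GFP comparisons share pools and are not independent of each other.

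**Figure D1:**
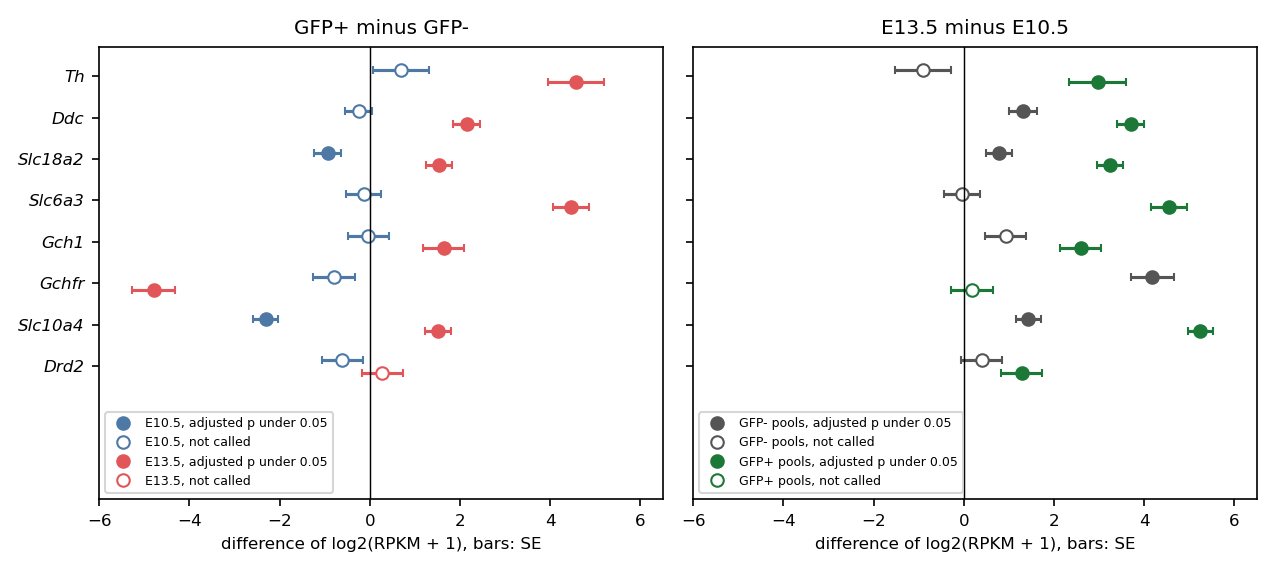
Log2 difference in RPKM + 1 for each of the 8 genes, with bars for the standard error and filled symbols where the adjusted p was under 0.05 (limma, 24 pools); the left panel gives GFP-positive minus GFP-negative at each stage and the right panel E13.5 minus E10.5 in each GFP class. Gchfr lies at -4.79 on the left at E13.5, where Th, Ddc, Gch1, Slc18a2, Slc10a4 and Slc6a3 lie between 1.51 and 4.57.

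Th, the rate-limiting enzyme, ranged from 0.893 to 37.4 RPKM (median 19.98) in E10.5 GFP-negative pools and from 11.9 to 52.4 (median 19.4) in E10.5 GFP-positive pools. At E13.5 it ranged from 0 to 20.4 (median 8.43) in GFP-negative and from 124.96 to 291 (median 180) in GFP-positive pools. The groups overlapped at E10.5 and were fully apart at E13.5, where the lowest GFP-positive pool was above every GFP-negative pool. The GFP difference was 0.69 ± 0.62 (SE, log2) at E10.5 with an adjusted p of 0.545 (limma), and 4.57 ± 0.62 at E13.5 with an adjusted p of 1.3e-05. From E10.5 to E13.5 Th rose by 2.97 ± 0.62 in GFP-positive pools (limma, adjusted p = 0.000258), while the difference in GFP-negative pools was -0.91 ± 0.62 (adjusted p = 0.242). Of 3 noradrenergic markers, Phox2a was 4.85 ± 2.24 RPKM (SD, n = 6) in E10.5 GFP-negative and 0.326 ± 0.444 in E10.5 GFP-positive pools. Dbh, the defining enzyme, was at 0 in 4 of 6 GFP-negative and 3 of 6 GFP-positive pools, with highest values of 1.31 and 6.73, and Slc6a2 was at most 0.593. The 3 summed to 1.63 to 8.30 without GFP and 0 to 6.92 with it. Their part in the Th level was not tested.

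Ddc ranged from 7.70 to 32.9 RPKM (median 15) in GFP-negative and from 8.995 to 21.7 (median 13.1) in GFP-positive pools at E10.5. By E13.5 the ranges were 19.5 to 70.4 (median 47.8) and 120 to 267 (median 187). Ddc therefore rose in both classes, by 3.70 ± 0.30 in GFP-positive pools (limma, adjusted p = 9.63e-11) and by 1.31 ± 0.30 in GFP-negative pools (adjusted p = 0.000784), where the stages overlapped. Its GFP difference was -0.24 ± 0.30 at E10.5 (adjusted p = 0.679) and 2.15 ± 0.30 at E13.5 (limma, adjusted p = 1.96e-05).

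Gch1, which starts cofactor synthesis, stayed under 2.46 RPKM in every E10.5 pool, with a median of 1.45 in both classes. At E13.5 it ranged from 0 to 11.98 (median 3.94) in GFP-negative and from 7.14 to 22.3 (median 10.6) in GFP-positive pools, so the classes overlapped. The E13.5 difference was 1.64 ± 0.46 on the log2 scale (limma, adjusted p = 0.0256). It lost the call in 4 of the fits that left out 1 E13.5 pool: GFP-negative replicate 1 (adjusted p = 0.0669) or 3 (0.0734), and GFP-positive replicate 1 (0.0632) or 4 (0.0559). In GFP-positive pools Gch1 rose by 2.60 ± 0.46 between stages (limma, adjusted p = 2.76e-05), with no overlap.

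Gchfr, the regulator of Gch1, was listed at 0 in 5 of 6 E10.5 GFP-positive pools and in 4 of 6 E13.5 GFP-positive pools, with highest values of 1.19 and 2.02 RPKM. In GFP-negative pools it ranged from 0 to 5.97 (median 0.545) at E10.5 and from 8.89 to 79.4 (median 37.6) at E13.5. Its E13.5 pools did not overlap between classes, and the GFP-positive minus GFP-negative difference was -4.79 ± 0.47 (limma, adjusted p = 7.09e-08), while GFP-negative pools rose by 4.18 ± 0.47 between stages (adjusted p = 5.73e-08).

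Serotonergic markers (Fev, Tph2, Slc6a4, Gata2, Gata3) moved with Gchfr. They summed to 75.5 to 208 RPKM in E13.5 GFP-negative pools, with none of the 5 at 0 in all pools. The means in those pools were 48.1 for Gata3, 33.4 for Fev, 24.03 for Gata2, 10.8 for Slc6a4 and 7.37 for Tph2. Gata2 is shared with GABAergic neurons, whose 6 markers summed to 188 to 280 in the same pools. Gata3 had the largest mean of the serotonergic markers. How much of Gata2 or Gata3 came from GABAergic cells was not tested, so the sums are not specific to serotonin neurons. In E13.5 GFP-positive pools the serotonergic sums were 0.228 to 3.25, and Fev was 0 in all 6. In the 6 E13.5 GFP-negative pools, Gchfr was 40.7, 61.3, 8.89, 79.4, 27.6 and 34.5 RPKM beside Fev at 24.8, 30.5, 12.2, 68.1, 16.6 and 48.03. The pool lowest in Gchfr was lowest in Fev and the pool highest in Gchfr was highest in Fev. Over all 24 pools Fev, a transcription factor of serotonin neurons, was the tested gene most correlated with Gchfr (r = 0.931 on log2 values), followed by Gata3 (r = 0.887) and Vwc2l (r = 0.870). Ddc, Slc18a2 and Gch1 also work in serotonin neurons, and the part of such cells in the GFP-negative levels of these genes was not tested.

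Slc18a2, the vesicular transporter, ranged from 5.57 to 12.8 RPKM (median 8.98) in E10.5 GFP-negative and from 2.61 to 5.55 (median 4.002) in E10.5 GFP-positive pools, just short of overlapping. The classes had changed order by E13.5, at 5.16 to 22.8 (median 17.9) and 30.5 to 84.9 (median 42.8). The GFP difference was -0.94 ± 0.29 at E10.5 (limma, adjusted p = 0.0316) and 1.53 ± 0.29 at E13.5 (adjusted p = 0.000963), a change of 2.46 ± 0.41 between stages (adjusted p = 0.00031). The E10.5 call was lost without GFP-negative replicate 1 (limma, adjusted p = 0.0677), 2 (0.0819) or 5 (0.06), or without GFP-positive replicate 1 (0.0682), 3 (0.0527) or 6 (0.075). Slc18a2 rose by 3.24 ± 0.29 in GFP-positive pools (limma, adjusted p = 5.78e-10).

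In GFP-negative pools the stage difference of Slc18a2 was 0.78 ± 0.29 with an adjusted p of 0.0304 (limma). That call was lost when the 12 GFP-negative pools were fitted alone (0.0606), without E10.5 replicate 3 (0.0735), 4 (0.0516) or 6 (0.0705), and without E13.5 replicate 2 (0.0731), 4 (0.071) or 5 (0.0765).

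Slc10a4, a vesicle protein of monoaminergic and cholinergic neurons, showed the clearest change of order. At E10.5 it ranged from 2.62 to 10.3 RPKM (median 6.90) in GFP-negative and from 0 to 1.18 (median 0.398) in GFP-positive pools, and at E13.5 from 10.53 to 24.3 (median 17.8) and from 41.4 to 65.2 (median 54.6). Neither stage showed overlap between classes. The GFP difference was -2.30 ± 0.28 at E10.5 (limma, adjusted p = 1.01e-06) and 1.51 ± 0.28 at E13.5 (adjusted p = 0.000702; 0.0651 with a pseudocount of 0.1). Slc10a4 rose by 5.24 ± 0.28 in GFP-positive pools (limma, adjusted p = 2.77e-14) and by 1.43 ± 0.28 in GFP-negative pools (adjusted p = 0.000138). Of 2 motor neuron markers, Isl1 ranged from 10.43 to 46.8 RPKM in the E10.5 GFP-negative pools against 0 to 0.915 in the E10.5 GFP-positive pools. Chat, the cholinergic enzyme, was at 0 in 4 of the 6 GFP-negative pools and at most 0.401 in the others. Their part in the Slc10a4 difference was not tested.

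Slc6a3, the uptake transporter, was at most 0.652 RPKM in the 12 pools of E10.5, and in E13.5 GFP-negative pools 5 of 6 were listed at 0 and the other was 1.19. E13.5 GFP-positive pools ranged from 5.88 to 65.1 (median 27.8), all above every other pool although they differed widely among themselves. The GFP difference at E13.5 was 4.46 ± 0.40 on the log2(RPKM + 1) scale (limma, adjusted p = 1.12e-08) and the stage difference in GFP-positive pools 4.55 ± 0.40 (adjusted p = 2.98e-10). Drd2, the receptor, was at 0 in all 6 E10.5 GFP-positive pools and at most 3.97 RPKM in E10.5 GFP-negative pools. At E13.5 it ranged from 0 to 2.24 (median 1.27) without GFP and from 0 to 5.96 (median 0.991) with GFP, a difference of 0.28 ± 0.45 (limma, adjusted p = 0.811). Its stage difference in GFP-positive pools was 1.28 ± 0.45 (limma, adjusted p = 0.02), with overlap. It lost the call without E13.5 GFP-positive replicate 1 (0.98, adjusted p = 0.0679) or 2 (1.003, 0.066), the pools with the 2 highest values, 5.96 and 5.42 RPKM.

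**Figure D2:**
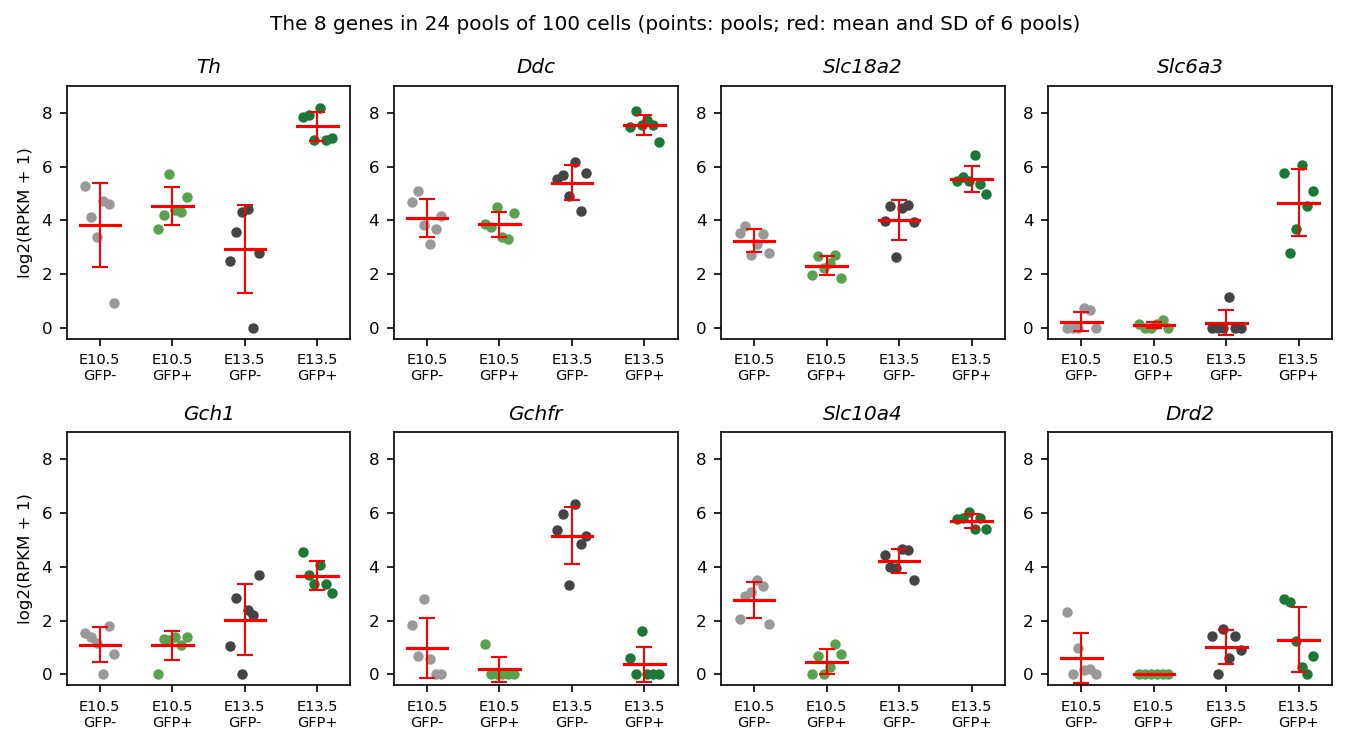
RPKM of each gene on a log2(RPKM + 1) axis in the 24 pools, with 1 point per pool (grey for GFP-negative, green for GFP-positive) and a red mean ± SD (n = 6) for each of the 4 groups. The E13.5 GFP-positive pools lie above all others for Th, Ddc, Slc18a2, Slc10a4 and Slc6a3, whereas Gchfr is highest in the E13.5 GFP-negative pools.

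Whether the GFP difference itself changed with stage was tested for each gene. It was 4.60 ± 0.56 for Slc6a3 (limma, adjusted p = 4.61e-06), 3.88 ± 0.88 for Th (0.0068), 3.82 ± 0.40 for Slc10a4 (4.59e-07), 2.39 ± 0.43 for Ddc (0.000662) and -3.996 ± 0.67 for Gchfr (0.000313). For Gch1 it was 1.67 ± 0.64 (adjusted p = 0.142) and for Drd2 0.88 ± 0.64 (0.513), neither past the threshold.

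The genes most correlated with each member over the 24 pools differed between members. Pitx3, the dopamine neuron factor, was the gene most correlated with Th (r = 0.824) and Slc6a3 (r = 0.948), and Elovl3 came next for both (0.810 and 0.947). For Slc10a4 they were Tspan13 (r = 0.95) and Chst8 (0.948), and for Ddc Clip3 (0.933) and Klhl1 (0.929). Among member pairs Slc18a2 with Slc10a4 had r = 0.899 and Ddc with Slc18a2 0.882, whereas Th with Gchfr had -0.494. These values describe 24 pools in 4 groups that share stage and GFP class. Pitx3 itself was 79.98 ± 32.04 RPKM (SD, n = 6) in E13.5 GFP-positive pools and at 0 in all 6 E13.5 GFP-negative pools.

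Of 6 genes of tetrahydrobiopterin synthesis and recycling, 0 differed by GFP class at E13.5, where 3.42% of all genes were higher and 3.74% lower. From E10.5 to E13.5, 3 fell in pools with GFP and 2 in pools without, against 29.6% and 26.9% of all genes. All these counts are near the background. The median difference between stages was -0.39 and -0.34, beside the -0.14 and -0.11 of all genes. Sepiapterin reductase (Spr), which completes the cofactor, fell by 2.3 on the log2 scale in GFP-positive pools (limma, adjusted p = 4.8e-08) and by 2.22 in GFP-negative pools. Pcbd2, of the cofactor's recycling, fell by 1.61 in GFP-positive pools (limma, adjusted p = 6.71e-05). Dnajc12, a co-chaperone of the aromatic amino acid hydroxylases, exceeded its GFP-negative level at E10.5 by 1.10 ± 0.37 (limma, adjusted p = 0.049).

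Of the breakdown and conversion genes, 4 of 6 listed were tested. Between stages 0 rose and 2 fell in each class, near the shares of all genes that fell (29.6% with GFP, 26.9% without). Aldh1a1, an aldehyde dehydrogenase of a subset of dopamine neurons and their progenitors, exceeded its GFP-negative level at E10.5 by 4.64 (limma, adjusted p = 2.6e-08) and fell by 3.37 in GFP-positive pools by E13.5 (5.86e-07). Monoamine oxidase B (Maob) fell by 3.16 in the same pools (limma, adjusted p = 0.000147). Of 4 tested genes of other monoamine systems, Tph2, the neuronal enzyme of serotonin synthesis, was lower with GFP at E13.5. Its GFP-positive minus GFP-negative difference was -2.31 (limma, adjusted p = 0.000867), the same direction as Gchfr. Tph2 reached 1 RPKM in 5 E13.5 GFP-negative pools and 1 E13.5 GFP-positive pool, so the filter itself favours a difference for it. The same holds for Aldh1a1, which reached 1 RPKM in 6 pools of E10.5 and 2 of E13.5, all GFP-positive. Of the other dopamine receptors, Drd4 and Drd5 did not reach the filter, and Drd1 and Drd3 were not analysed here.

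In single cells a gene was counted as detected at 10 RPKM or more, which in a cell of median depth was about 8.31 reads for Gchfr and 48.8 for Slc18a2, the lowest and the highest of the 8. Each stage is 1 sample with no labelled embryo, so shares carry exact Clopper-Pearson 95% intervals that cover counting error only, and no test was made. Of the 8 genes, 7 were detected in at least 1 cell at E10.5, and Slc6a3 was not. Th was detected in 15 cells at E10.5 (10.9%, 6.26 to 17.4), 14 at E11.5 (15.6%), then 16 at E12.5 (8.99%) and finally 21 at E13.5 (14.5%, 9.19 to 21.3), so its share showed no order by stage beyond the intervals. Its level in those cells was higher at later stages, with medians of 208, 875, 721 and 1004 RPKM in stage order.

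Ddc was detected in 18.2%, 10%, 23.03% and 25.5% of cells in stage order, and its median level where detected went from 58.8 at E10.5 to 833 at E13.5. Slc18a2 went from 7.30% at E10.5 (3.56 to 13.01) to 11.1%, 16.9% and 22.8% (16.2 to 30.5), intervals that do not overlap between the first and last stage. Slc10a4 was detected in 1 cell at E10.5 and in 6.67%, 17.98% and 16.6% of cells afterwards. Gch1 was in 3, 0, 11 and 11 cells.

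Slc6a3 was the last to be detected. It was in 0 cells at E10.5, for which the exact upper limit is 2.66%. That limit is 2.19% if 3 cells are taken as the limit of a count of 0. At E11.5 it was also in 0 cells (4.02% and 3.33%). It was in 3 at E12.5 (1.69%) and in 9 at E13.5 (6.21%, 2.88 to 11.46). The E12.5 share lies below the exact limits of both earlier stages, so a start of Slc6a3 at E12.5 is not resolved. Its detected values at E13.5 ran from 28.5 to 1431 RPKM. A further 28 cells at E13.5 had Slc6a3 values above 0, all below 1 RPKM, as did 5 cells at E12.5 and 1 at E11.5. Gchfr was detected in 6 cells and Drd2 in 7 of 550, and at E13.5 Gchfr was in 0 cells. The E11.5 cells were the shallowest, with a median of 3567 detected genes against 5747 at E10.5, and the part of depth in the E11.5 shares was not tested.

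**Figure D3:**
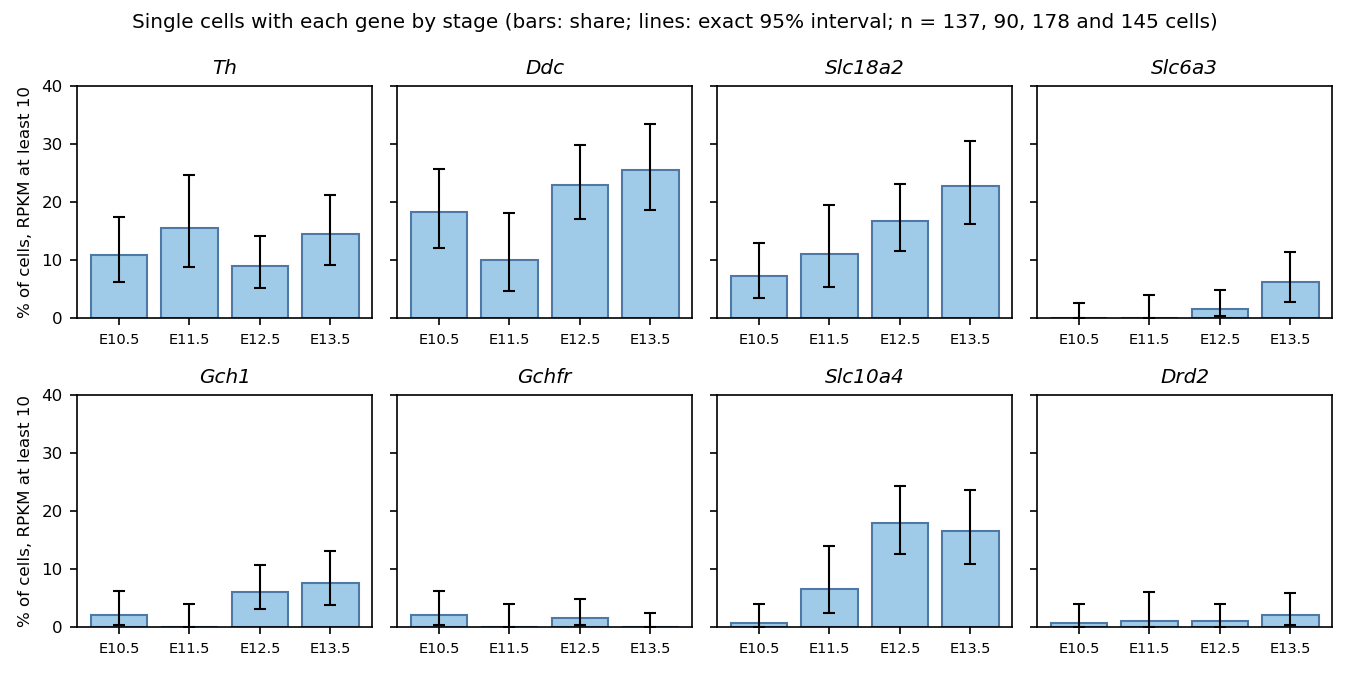
Percentage of single cells at each stage with each gene at 10 RPKM or more, with exact 95% intervals for counting error over the 550 cells. Slc6a3 is at 0 at E10.5 and E11.5 and at 6.21% at E13.5, while the intervals of Th overlap at all 4 stages.

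Cells with 4 or more members were seen from E12.5 on, whereas cells with fewer were seen at every stage. At E10.5, 46 cells (33.6%) had at least 1 member, 36 of those 46 had 1 alone, and 10 (7.30%) had 2 or 3. Cells with 4 or more members numbered 0 at both E10.5 (exact upper limit 2.66%) and E11.5 (4.02%). They numbered 10 at E12.5 (5.62%, 2.73 to 10.1) and 14 at E13.5 (9.66%, 5.38 to 15.7). The E11.5 limit lies within the E12.5 interval, so a start between these 2 stages is not resolved. No cell had all 8. The cell with 7, at E13.5, had Th at 485, Ddc at 610, Slc18a2 at 70.6, Slc6a3 at 28.5, Gch1 at 15.9, Slc10a4 at 146.4 and Drd2 at 55.6 RPKM, and lacked Gchfr.

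Among Th cells, 5 of 15 at E10.5 (33.3%), 11 of 14 at E11.5 (78.6%), 14 of 16 at E12.5 (87.5%) and 20 of 21 at E13.5 (95.2%) had at least 1 other member. Cells without Th had at least 1 of the other 7 in 25.4%, 15.8%, 33.95% and 33.1% in the same order. Ddc joined Th in 4 of 15, 6 of 14, 11 of 16 and 19 of 21 Th cells. Over all stages Ddc was in 60.6% of Th cells and Th in 35.7% of Ddc cells, with the order turned at E11.5, where Th was in 6 of 9 Ddc cells. Of the 12 Slc6a3 cells, 11 had Ddc, 10 Slc18a2, 10 Slc10a4, 9 Th, 8 Gch1 and 0 Gchfr.

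**Figure D4:**
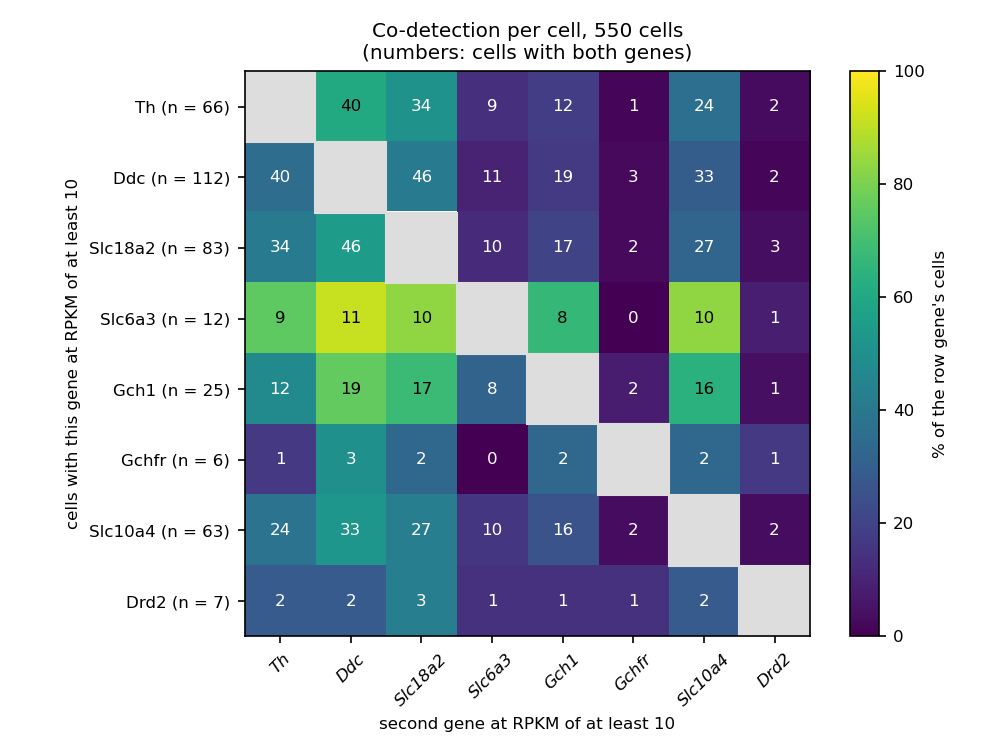
Percentage of the cells with the row gene at 10 RPKM or more in which the column gene was also detected, over 550 cells, with the number of cells beside each row name. Of the 12 Slc6a3 cells 11 had Ddc and 0 had Gchfr, and Th and Gchfr shared 1 cell.

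The Th cells also changed in their other genes. At E10.5 all 15 had Lmx1a and 14 had EGFP, whereas Nr4a2 was in 2 and Pitx3 in 0, and 7 had the cycling marker Mki67. Th was in 15 of 98 E10.5 cells with Lmx1a and 0 of 39 without. In the E10.5 pools the Th median was 19.98 RPKM without GFP and 19.4 with GFP. Lmx1a had means of 1.55 and 72.1 RPKM in those pools. A share of cells with Th detected and the Th level of a pool are different measures, so no disagreement between cells and pools is shown. The source of Th in the GFP-negative pools was not tested. At E13.5 20 of 21 Th cells had Nr4a2, 17 had Pitx3, 15 Lmx1a, 4 EGFP and 0 Mki67. Over all cells of a stage Nr4a2 went from 6.57% at E10.5 to 42.8% at E13.5 and EGFP from 75.2% to 26.9%, so both shifts were also seen in the stage as a whole.

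Members were most often detected in cells with both Nr4a2 and Pitx3. At E13.5, 25 cells had both, and of these 23 had Ddc (92%), 17 Th (68%), 17 Slc18a2, 14 Slc10a4 (56%), 8 Gch1, 8 Slc6a3, 1 Drd2 and 0 Gchfr, and 13 had at least 4 members. Of 37 E13.5 cells with Nr4a2 and without Pitx3, 10 had Ddc (27.03%), 3 Th (8.11%), 8 Slc18a2 (21.6%) and 1 Slc6a3, and 1 had at least 4 members. Of 83 cells without Nr4a2, 4 had Ddc, 1 Th, 8 Slc18a2 and 0 had 4 or more. At E12.5 14 cells had both factors, 14 of them with Ddc, 12 with Slc10a4, 11 with Slc18a2, 7 with Th and 2 with Slc6a3.

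Among the 24 cells with 4 or more members, 24 had Ddc, 24 Slc18a2, 21 Slc10a4, 20 Th, 16 Gch1 and 10 Slc6a3. Of the lineage genes, 22 had Nr4a2, 22 En1, 20 Pitx3 and 17 Lmx1a, and 5 had EGFP. None had Mki67, or Barhl1, a marker of the subthalamic lineage. Of the cells with Barhl1, 7 had Th (4.24%), 20 Ddc (12.1%), 7 Slc18a2 (4.24%) and 0 Slc6a3. Of the 385 cells without Barhl1, 15.3% had Th, 23.9% Ddc and 19.7% Slc18a2. Cells with 4 or more members had a median of 4389 detected genes and 1.82 M reads, and cells with none 4326 genes and 1.23 M reads. The part of depth in these counts was not tested.

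**Figure D5:**
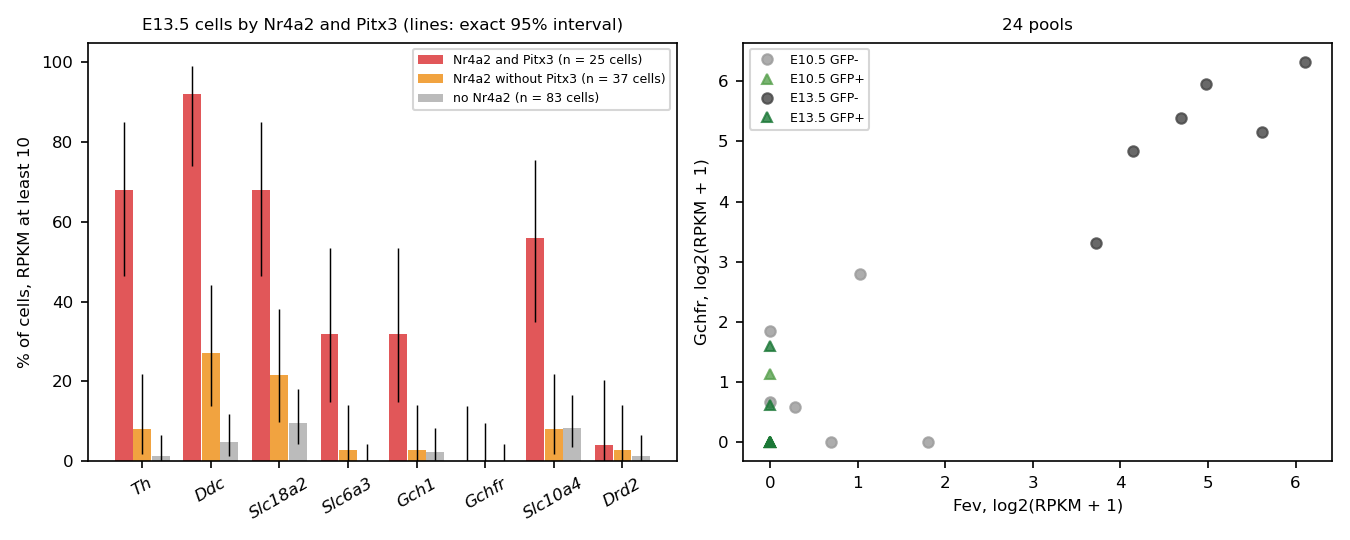
Left, percentage of E13.5 cells with each gene at 10 RPKM or more, among 25 cells with Nr4a2 and Pitx3, 37 with Nr4a2 without Pitx3 and 83 without Nr4a2, with exact 95% intervals; right, Gchfr against Fev in the 24 pools on log2(RPKM + 1) axes. Th is at 68% and 8.11% in the first and second cell class, and Gchfr and Fev are both highest in E13.5 GFP-negative pools.

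Other named genes were also detected in cells with a single member. At E12.5 and E13.5 together, 27 cells had Ddc alone, of which 14 had Nr4a2, 3 Pitx3, 10 Barhl1 and 7 the GABAergic enzyme Gad2. Another 21 had Slc18a2 alone and 19 Slc10a4 alone, and the glutamatergic transporter Slc17a6 was in 12 of each. The shares of these genes over all cells of these stages are not set beside these counts, so no trait of single-member cells is shown. Th alone was seen in 3 cells at these stages and in 10 at E10.5.

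The 6 Gchfr cells had Nr4a2 and Pitx3 in 0 cells. All 3 at E12.5 had Gata2, which serotonergic and GABAergic neurons share. In 1 of them Gchfr was 387 RPKM, Gata2 178.4 and the GABAergic enzyme Gad2 361, with Fev, Tph2 and Slc6a4 at 0, and the other 2 had Fev, Tph2 and Slc6a4. The first of those 2 had Fev at 622, Tph2 at 2169, Slc6a4 at 580 and Gata3 at 401 RPKM, with Gchfr at 2126, Ddc at 1175, Slc18a2 at 978, Gch1 at 82.9 and Slc10a4 at 225. The second had Fev at 1640, Tph2 at 707, Slc6a4 at 1764 and Gata3 at 227, with Gchfr at 863, Ddc at 1495, Slc18a2 at 665, Gch1 at 573 and Slc10a4 at 312. Th and Slc6a3 were at 0 in both. With 5 members each, these 2 cells counted among the 24 with 4 or more. Without them all 22 had Nr4a2 and 0 had Gchfr. Another E12.5 cell had Fev at 51.2 RPKM, Gata2 at 748 and Ddc at 1637, with Gchfr, Tph2 and Slc6a4 at 0. Gchfr was also 0 in an E11.5 cell with Slc6a4 at 36.2 and an E12.5 cell with Slc6a4 at 109.5. Of the 3 Gchfr cells at E10.5, 0 had Fev or Gata2, and 1 had Th at 1395 and Lmx1a at 300 RPKM.

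Among supporting genes at E12.5 and E13.5, Dnajc12 was in 10 of 24 cells with 4 or more members (41.7%) and 17 of 190 with none. Aldh1a1 was in 3 of the 24 and 0 of the 190. Dbh, which turns dopamine into noradrenaline, was detected in none of these cells.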

How the data were processed

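The 24 pools and the single cells (137 for E10.5, 90 for E11.5, 178 for E12.5, 145 for E13.5) were sequenced after Smart-seq2 and Nextera XT, per the labels' protocols, and aligned with STAR 2.3.0 to mm10, per the submitters' processing notes. Which read counter and annotation were used is not given in the sources used here. Deposited by the authors were RPKM per gene for the 24 pools and, for the cells, log2 values that the file's lowest value shows to be log2(RPKM + 0.001), which were turned back to RPKM. Neither table holds counts, and depth was estimated from where the lowest values, scaled by exon length, pile up, so it is approximate. As a check, a median of 19.6% of low values per cell and 23.1% per pool came within 0.05 of whole reads. If values fell anywhere, 10% would, so read numbers are rough. No column was left unused. Pools were compared with limma 3.58.1 (R 4.3.3; trend on) on log2(RPKM + 1), using genes with at least 1 RPKM in 6 or more pools, all 24 pools and 4 group means, with Benjamini-Hochberg adjustment over the 15871 tested genes. Differences on this scale understate changes of low genes. Cells were described at 10 RPKM with exact binomial intervals (scipy 1.17.1, Python 3.11.15). The fitting code was tested on simulated data. Named genes are the 8 members, EGFP, lists of related genes and markers, and the genes most correlated with each member over pools. The Fev-containing cells and the genes given for single-member cells were singled out after their values were seen. Results for some genes of these lists are not reported here, and the lists' counts and sums are without them. Members and lists were chosen with earlier results of these data known. Alternatives were a pseudocount of 0.1, other filters, scalings, groups fitted alone, each pool left out, and cell thresholds of 1 and 30 RPKM.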

Additional observations from a re-analysis of the deposited data

Results flagged for a closer look

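In 4 of the 32 combinations of gene and pool group, 1 pool stood apart from the other 5 by Dixon's test. Chance marks about 1 in 20 where values are normally spread, which does not hold for groups with many values of 0. Slc18a2 was 5.16 RPKM in 1 E13.5 GFP-negative pool, and the nearest of the other pools was 14.4. Slc6a3 was 1.19 RPKM in 1 E13.5 GFP-negative pool with the others at 0, and Gchfr was 1.19 in 1 E10.5 GFP-positive pool with the others at 0. With 5 pools at 0, any value above 0 in the other pool is marked. Drd2, at 0 in all 6 E10.5 GFP-positive pools, could not be marked there. Gch1 was listed at 0 in 1 E10.5 GFP-positive pool, where the next was 1.11.

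The GFP difference itself changed between E10.5 and E13.5, by the interaction test in limma, for 6 genes. The change was 3.88 for Th, 2.39 for Ddc, 2.46 for Slc18a2, 4.60 for Slc6a3 and 3.82 for Slc10a4 on the log2 scale, and -3.996 for Gchfr.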

How the results depend on the processing

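No paired analysis was possible because the labels give no replicate number that links pools across groups. Of 267 values under other settings, 263 kept direction and side of the threshold. The others lost the call: Gch1 by GFP class at E13.5 with a pseudocount of 0.1 (limma, adjusted p = 0.145) or those groups fitted alone (0.0888), and Slc10a4 and Slc18a2 as given above. Of 960 values with 1 pool left out, 930 were unaffected, 18 lost the call, 3 gained it and 9 changed sign. Those that changed sign were never past the threshold: Drd2 by GFP class at E13.5 ranged from -0.028 to 0.53, Gch1 at E10.5 from -0.26 to 0.18, Gchfr between stages in GFP-positive pools from -0.064 to 0.37 and Slc6a3 in GFP-negative pools from -0.23 to 0.053. The count lower at E10.5 ranged from 1 to 2 and the count that fell in GFP-negative pools from 0 to 1, Th falling by 1.49 (limma, adjusted p = 0.0276) without E10.5 replicate 6. Without E13.5 GFP-negative replicate 3 Gch1 rose in GFP-negative pools by 1.33 (0.00877), and without replicate 6 its GFP difference changed by 2.001 between stages (0.0461). At 1 RPKM the shares of cells became 20% for Ddc at E11.5, 18.5% for Th and 37.6% for Ddc at E12.5, and 28.3%, 51.7% and 31.7% for Th, Ddc and Slc10a4 at E13.5. The E12.5 cells carry the letter C or F in their titles, and C cells alone gave 15.9% for Ddc and 0 for Gchfr, F cells alone 0 for Drd2. The share with at least 4 members at E12.5 was 3.17% in C and 6.96% in F cells. The number of cells sampled sets the upper limits given for Slc6a3 before E12.5. Depth limits detection of short genes most, since 10 RPKM of Gchfr is about 8.31 reads in a cell of median depth.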
